A study of Drosophila melanogaster and Drosophila ananassae and Drosophila pseudoobscura with 52 samples.

Results

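Editing levels were examined at the autosomal sites of the deposited tables that lie in dense clusters, that is, sites with at least 2 other listed sites of the same chromosome within 50 bp. Of the 2380 listed sites, 580 (24.4%) met this rule, which makes 30.5% of the 1903 autosomal sites. All listed sites counted as neighbours whether or not they had been measured, and no editing level entered the rule. The members were spread over 2L (76 sites), 2R (168 sites), 3L (138 sites), 3R (178 sites) and chromosome 4 (20 sites). Chained over steps of at most 50 bp, they formed 149 clusters. Coordinates are 1-based positions of the D.mel genome build dm3, which the submitters' processing notes name. The sites are given by position only, without gene or exon names.

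The samples were pools of 10 adult whole bodies, collected about 5 days after eclosion and untreated. The species comparison covered both sexes of 6 species, each from 1 stock, namely D.mel (14021-0231.69), D.sim (14021-0251.011), D.yak (14021-0261.01), D.ana (14024-0371.13), D.pse (14011-0121.94) and D.vir (15010-1051.09). It drew on 24 libraries of mmPCR-seq, a multiplexed PCR of chosen loci in microfluidic wells followed by sequencing, with 2 libraries for each species and sex. A further 12 libraries of D.ana, D.pse and D.vir came from a targeted PCR with other primers. Strain variation within D.mel was measured in 16 mmPCR-seq libraries of males, 2 for each of the DGRP lines 26, 325, 352, 441, 721, 774, 786 and 804, which are inbred wild-derived lines. The species tables hold 1 combined value per site, species and sex, so those values carry no SD, whereas the table of the lines holds 1 value per library. The tables hold no read depths for single values, for which the study set a minimum of 50 mmPCR-seq reads. In whole bodies, a tissue's share of the transcripts and the editing level within that tissue cannot be told apart.

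A-to-I editing is carried out by the ADAR enzyme, which binds double-stranded RNA and deaminates adenosines to inosines. Reverse transcription copies inosine as if it were guanosine, so the editing level of a site is the share of reads with G among those with A or G. Several adenosines of the same duplex can be edited, and the level reached at each depends on the local sequence and on the structure around it. Neighbouring sites in a transcript are therefore often read together, in the same PCR product and on the same reads.

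Dense clusters were compact. Consecutive members lay a median of 6 bp apart, 100 of the 431 consecutive pairs were directly adjacent, and 62.4% were at most 10 bp apart. A cluster held a median of 3 members and at most 10, 38 clusters held 5 or more, and the longest spanned 155 bp. Because some members have neighbours that are not members themselves, 6 clusters consist of 1 member. Of the 580 members, 340 (58.6%) had a level in at least 1 species, sex or line, against 41.1% of all listed sites. In D.mel males 265 members in 78 clusters had a level, and 189 members passed the filter of the test between lines.

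Primers of the study's D.mel panel are shown for 3 clusters to which the results return, because they define which stretch of transcript was read. They are given 5′ to 3′ as the study lists them, by the site they were designed for. Capitals mark the run of 19 bases that the reverse primers for 3L:2941364 and 3L:2941425 have in common, so their amplicons used nearly the same reverse primer, while the pair for 3L:2941312 shares no run longer than 6 bases with them. The amplicons were not placed on the genome here.
3L:2941312 forward: tgccgaaaaggatgaaaaggat
3L:2941312 reverse: cttttcgcggcgcatct
3L:2941364 forward: gggcgggtattacaatgaca
3L:2941364 reverse: ACTTGGCGAAGGCATCTTT
3L:2941425 forward: gtgttgcatatgcggtgttc
3L:2941425 reverse: gACTTGGCGAAGGCATCTTTc
3L:4590709 forward: gaaatgctggaaagctggctat
3L:4590709 reverse: tcgcacttatcggtgttatgaa
3R:13708487 forward: cgccattagcggatcgatga
3R:13708487 reverse: atggggcacgtttgttattgt

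The members covered the whole range of levels in D.mel males, from 0 to 100%. The median was 8.45% and the quartiles were 1.65 and 39.8% (n = 265 sites), 49 members were at 50% or more and 52 at 1% or less. The median of all listed sites in D.mel males was 8.48% (n = 752), close to that of the cluster sites. Among the DGRP males the cluster sites had the lower median, as given below. The medians had no steady order by the number of neighbours. The median was 8.3% with 2 neighbours (n = 98), 7.3% with 3 (n = 67), 12.2% with 4 (n = 50) and 6.45% with 5 or more (n = 50). Autosomal sites just outside the rule, with 1 neighbour, had a median of 5.7% (n = 127), and those with no neighbour had 8.75% (n = 197).

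Sites of the same cluster were edited to very different levels. In the 54 clusters with at least 3 D.mel male levels, the range within the cluster had a median of 43.2 percentage points, and it exceeded 50 points in 21. Members lay on both sides of 10% in 42 of these clusters, all were under 10% in 8 and all were at 10% or more in 4. Directly adjacent sites could also differ widely. Among 51 adjacent pairs the median difference was 9.3 points and the largest 91.5 points, and exactly 1 of the 2 sites reached 10% in 18 pairs.

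Within D.mel the pattern of a cluster could be steep and recur from library to library, while other clusters, described below, changed between lines. In the cluster at 2R:7335106-7335128, the 6 sites were at 80.6, 8.95, 95.3, 14.7, 82.7 and 76.0% in D.mel males, in order of position. In the 16 DGRP libraries, 2R:7335106 ranged from 70.2 to 80.4% (median 76.9%) and its neighbour 2R:7335111 from 6.8 to 10% (median 7.9%). The site 1 bp further on, 2R:7335112, lay between 91.5 and 95.2% (median 93.1%). The ranges of these neighbours did not overlap. D.sim males had 75, 8.45 and 95.6% at the same 3 sites, and D.yak males 78.1, 4.25 and 93.1%.

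Medians of the members decreased from D.mel to the distant species in males. D.mel had a median of 8.45% (n = 265), D.sim of 6.6% (n = 249), D.yak of 4.1% (n = 187), D.ana of 2.95% (n = 139) and both D.pse (n = 113) and D.vir (n = 106) of 0.9%. In females the medians were 5.3% (n = 300), 4.68% (n = 256), 3.25% (n = 211), 2% (n = 138), 1.2% (n = 102) and 1.55% (n = 81) in the same order. The sets of measured sites differ between species, which is part of these numbers. The study also picked its mmPCR-seq loci by their editing level in adult D.mel. Male medians of the other autosomal sites decreased as well, with 7.9, 7.8, 4.35, 1.9, 0.7 and 0.5% in the same order. The share of members at 10% or more was compared with that of the other autosomal sites. In D.vir males 24.5% of the members were at 10% or more, against 17.1% of 152 other autosomal sites, and in D.vir females 29.6% against 9.65% of 114. In D.mel the shares were 45.3% against 44.8% in males, and 39.0% against 26.3% in females. D.yak males had 35.8% in both sets, and D.pse males went the other way, with 26.5% of the members against 29.4% of 170 other sites. These differences between sets of sites were not tested, since sites of a cluster are not independent.

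**Figure D1:**
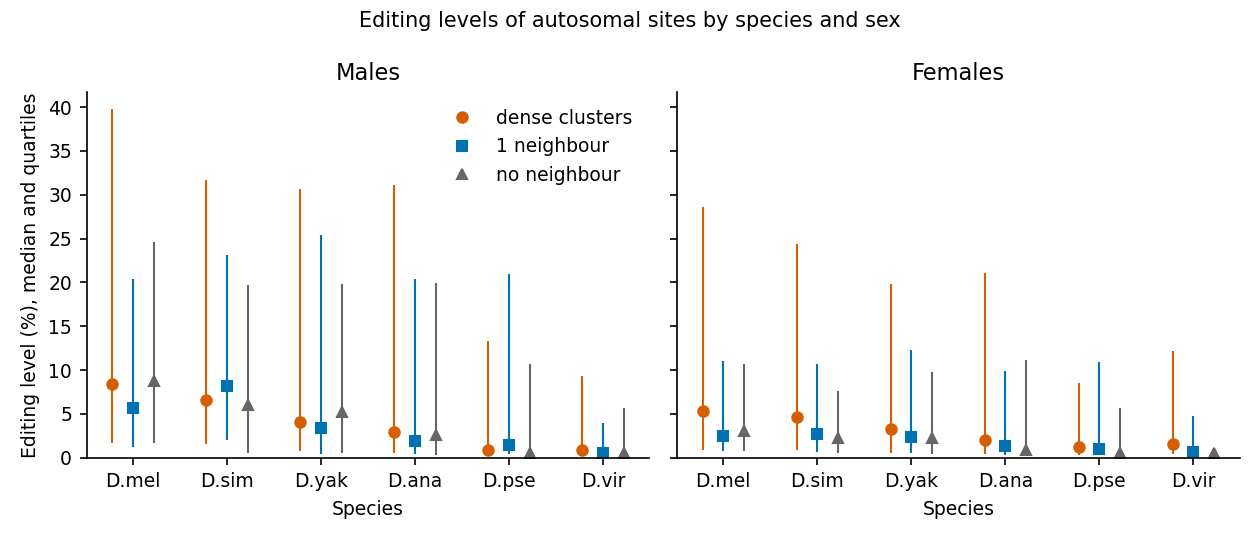
Editing level in percent (vertical axis) by species (horizontal axis) in males (left) and females (right), as medians (symbols) with the lower and upper quartiles (vertical lines) over autosomal sites in dense clusters, with 1 neighbour and with no neighbour within 50 bp. The upper quartile of the cluster sites reaches 39.8% in D.mel males, and their male medians decrease from 8.45% in D.mel to 0.9% in D.pse and D.vir.

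Sharing with D.mel was followed over the 120 members at 10% or more in D.mel males. Of those with a level in the other species, 77 of 98 (78.6%) were also at 10% or more in D.sim males and 50 of 66 (75.8%) in those of D.yak. For D.ana the count was 29 of 46 (63.0%), for D.pse 20 of 37 (54.1%) and for D.vir 15 of 29 (51.7%). Absence, a level of at most 1.5%, was found for 5 of 98 (5.1%) in D.sim and 6 of 66 (9.09%) among D.yak males. It was found for 12 of 46 (26.1%) in D.ana, for 13 of 37 (35.1%) in D.pse and for 9 of 29 (31.0%) among D.vir males. The absent shares of the other autosomal sites were 6.0, 15.3, 32.9, 38.7 and 54.0% in the same order of species. They were higher than those of the members in each species. Of the other autosomal sites, 79.0% of 100 were at 10% or more in D.sim, 69.4% of 72 in D.yak and 60.3% of 73 in D.ana. In D.pse it was 53.2% of 62 and in D.vir 27.0% of 63. The shares at 10% or more were thus closest in D.sim and D.pse and furthest apart in D.vir, where only 29 members were measured. These differences between cluster sites and other sites were not tested.

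Absence could extend to all compared members of a cluster. Clusters with at least 2 members at 10% or more in D.mel males and measured in the other species were sorted by the fate of those members. In D.sim, all of them were at 10% or more in 17 of 30 clusters and in none were all at 1.5% or less. In D.pse, all were at 10% or more in 7 of 13 clusters, all were at 1.5% or less in 3, and members were on both sides in 1. The corresponding numbers in D.vir were 2, 1 and 4 of 9 clusters.

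The clearest case of absence was the cluster at 3L:2941311-2941426, with 8 members over 116 bp. In D.mel males the 4 highest sites were 3L:2941426 at 86.9%, 3L:2941364 at 82.8%, 3L:2941425 at 53.0% and 3L:2941396 at 41.5%. All 8 sites were at 0.55% or less in D.pse males, and the 5 with a level in D.pse females were at 0.3% or less. Of the 8, 3L:2941311, 3L:2941314 and 3L:2941390 were under 10% in D.mel males already, at 9.8, 0.45 and 2.4%. The highest sites were high in both closer and more distant relatives. 3L:2941426 had male levels of 85.7% (D.sim), 91.1% (D.yak) and 75% (D.ana), and was at 94.2% in D.vir females. 3L:2941364 was at 92.9% in D.vir females. Which base the D.pse genome carries at the 8 positions was not tested.

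A site of this cluster also set the D.mel stock apart from the DGRP lines. 3L:2941312 was at 34.7% in males and 32.9% in females of the D.mel stock, but between 70 and 80% (median 74.8%) in the 16 DGRP libraries and at 74.1% in D.sim males. The adjacent 3L:2941311 was at 9.8% in the D.mel stock and between 4.9 and 7.9% in the libraries. For 3L:2941426, which lies at the other end of the cluster, the D.mel stock had 86.9% and the libraries 73.2 to 88.5%. Of 189 members with a level in D.mel males and in all 16 libraries, 7 (3.7%) lay more than 10 points outside the range of the libraries, against 2.6% of 500 sites in all.

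**Figure D2:**
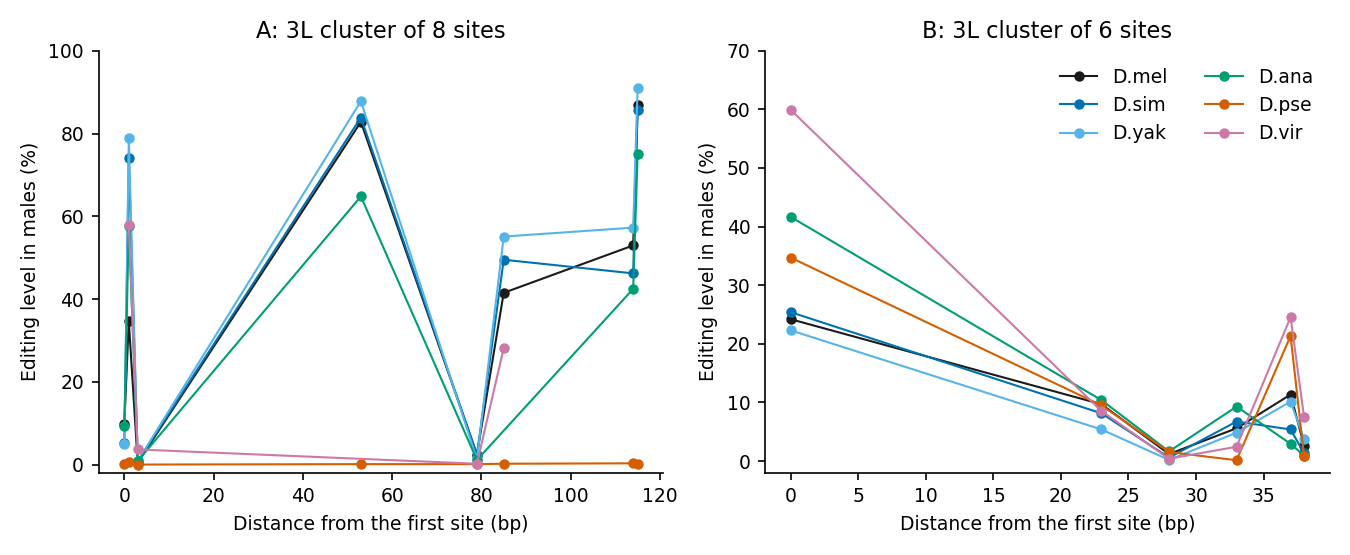
Editing level in males in percent (vertical axis) by distance in bp from the first site of the cluster (horizontal axis), 1 point per measured site and species, with lines joining the sites of a species. A shows the cluster at 3L:2941311-2941426, where the D.pse points all lie at 0.55% or less, and B the cluster at 3L:4369422-4369460, where the first site is the highest in all 6 species.

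All 6 sites of the cluster at 3L:4369422-4369460 had levels in both sexes of all 6 species. The first site, 3L:4369422, was the highest in each species, with male levels of 24.2% (D.mel), 25.4% (D.sim), 22.3% (D.yak), 41.7% (D.ana), 34.7% (D.pse) and 59.9% (D.vir). The fifth site, 3L:4369459, was at 11.4, 5.4, 10.2, 2.95, 21.3 and 24.6% in that order of species. 3L:4369450 stayed between 0.2 and 1.65% in males. 3L:4369455 was at 4.85 to 9.3% in the first 4 species but at 0.15% in D.pse and 2.45% in D.vir males. Among the DGRP libraries 3L:4369422 ranged from 24.3 to 32.8% and 3L:4369459 from 7.2 to 11.4%.

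The highest site of a cluster was often the same in 2 species. Clusters with at least 3 members measured in both species and a D.mel male level of 10% or more were compared. D.mel and D.sim had the same highest site in 32 of 35 clusters, D.mel and D.yak in 19 of 27, D.mel and D.ana in 13 of 17, D.mel and D.pse in 12 of 16, and D.mel and D.vir in 7 of 11. The median Spearman's rho of the order of sites, over 3 or more sites per cluster, was 1 for D.sim, 0.94 for D.yak, 0.60 for D.ana, 0.80 for D.pse and 0.67 for D.vir. These are descriptions across sites that share libraries and, in part, amplicons.

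Few members were edited everywhere. Of the 33 members with male levels in all 6 species, 2 were at 10% or more in each, against 4 of 47 other autosomal sites. They were 3L:4369422, described above, and 2R:4771211, with male levels of 85.8% (D.mel), 88.6% (D.sim), 88.2% (D.yak), 99.8% (D.ana), 76.5% (D.pse) and 26.6% (D.vir). The 5 highest members in D.mel males were 2R:6168396 (100%), 2R:7335112 (95.3%), 3R:1062054 (93.7%), 3R:191107 (93.4%) and 3R:21791365 (92.3%). Of these, 3R:191107 had male levels of 93.1% (D.sim), 98.2% (D.ana), 71.4% (D.pse) and 44.3% (D.vir), and 3R:21791365 of 60.0% (D.sim), 72.1% (D.yak), 94.0% (D.ana) and 84.1% (D.pse).

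Male levels exceeded female levels at most members in D.mel, and the share of such members changed over the species. In D.mel the male level was higher at 194 and lower at 55 of 257 members with both sexes, with a median difference of 1.25 points, and over all listed sites the male level was higher at 77.0%. D.sim had the higher level in males at 166 of 236 members, D.yak at 116 of 180, D.ana at 70 of 127 and D.pse at 47 of 89. D.vir had it at 25 of 70 and the lower level at 39. The corresponding shares over all listed sites were 74.7, 68.5, 59.8, 52.5 and 39.3%, close to the 70.3, 64.4, 55.1, 52.8 and 35.7% of the members. Median differences, male minus female, were 1.125, 0.65, 0.1, 0.05 and -0.1 points over the members, listed likewise. The 70 D.vir members had a median of 1.425% in males and 1.1% in females. Only 2 of them were higher in males by over 10 points, and 2 in females. The D.pse members with both sexes had medians of 0.7% in males and 0.8% in females. Medians this low, in D.pse and D.vir, lie near the typical rate of A-to-G sequencing errors that the study cites. The counts in these 2 species thus give neither the size of the differences nor a firm direction.

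The sex difference was tested at 94 members with both sexes in at least 4 species and a mean level of at least 1%, by limma on the log2 odds of editing with species as the pair. After Benjamini-Hochberg adjustment over all 251 sites tested, 3 members had higher levels in males and 0 in females, beside 4.38% of all tested sites that were higher in males and 0% higher in females. At an unadjusted p under 0.05, 17 members (18.1%) were higher in males and 2 in females, beside 54 (21.5%) and 3 of all 251 sites. The 3 members were 2R:11151551, 2R:20802381 and 2R:8336284.

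2R:8336284 belongs to a cluster of 8 members at 2R:8336191-8336339. Its male and female levels were 18.7 and 2.5% (D.mel), 18.6 and 3.15% (D.sim), 15.7 and 3.25% (D.yak), 10.3 and 5.25% (D.ana), and 0.7 and 0.15% (D.pse). Males were higher in 5 of 5 species, by 1.78 ± 0.36 (SE) on the log2 odds scale (limma adjusted p = 0.0424). The first site of the cluster, 2R:8336191, was at 16.2 and 2.05% (D.mel), 6.35 and 2.25% (D.sim), 16.9 and 2.3% (D.yak), 4.5 and 2.65% (D.ana), and 26.2 and 13.7% (D.pse). It was higher in males in all 5 species as well but did not pass the threshold (1.67 ± 0.36, limma adjusted p = 0.0529). The DGRP males ranged from 3.8 to 17.9% at this site (median 10.7%).

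**Figure D3:**
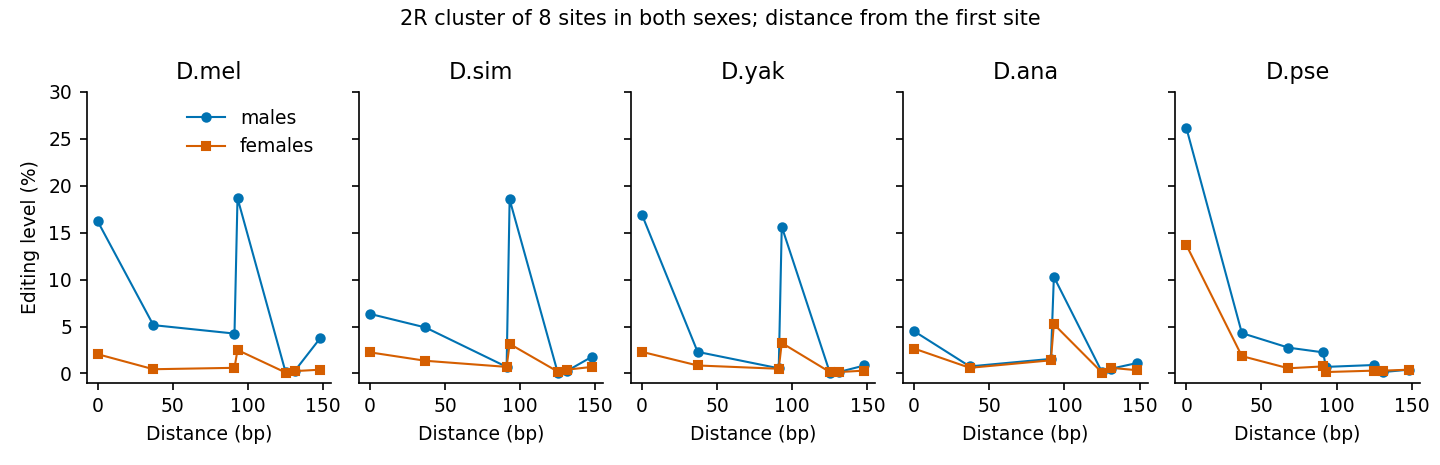
Editing level in percent (vertical axis) of males (circles) and females (squares) in 5 species (panels) by distance in bp from the first of the 8 sites of the cluster at 2R:8336191-8336339 (horizontal axis), with 1 combined value per site, species and sex. The male points at the first site lie above the female ones in all 5 panels, and D.pse has the highest first site, 26.2% in males, with 0.7% at the fifth.

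Of these 3 members, 2R:20802381 had the largest difference in points. Its male and female levels were 76.1 and 43.7% for D.mel, 85.9 and 66.5% for D.sim, 84.9 and 67.2% for D.yak, and 90.4 and 84.5% for D.pse (1.42 ± 0.26, limma adjusted p = 0.0424, higher in males in 4 of 4 species). In the 16 DGRP libraries, all of males, 2R:20802381 ranged from 14 to 64.2% (median 49.9%), below the males of the D.mel stock. It lies in a cluster of 9 members at 2R:20802313-20802397 with other sites that were low in DGRP males. 2R:20802397 was at 46.8% in males and 25.3% in females of the D.mel stock, but between 0.6 and 7.5% (median 5.0%) in the 16 libraries. 2R:20802387 was at 33.6% in females of the stock and between 1.3 and 14.8% in the libraries, and at 60.1% in D.sim and 71.7% in D.yak males.

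2R:11151551 was at 3.9% in males and 0.95% in females of D.mel. The male and female levels were 6.45 and 1.9% in D.sim, 23.8 and 14.5% in those of D.ana, 22.6 and 9.2% in those of D.pse, and 2.7 and 1.5% in those of D.vir. The difference was 1.13 ± 0.20 on the log2 odds scale (limma adjusted p = 0.0297, higher in males in 5 of 5 species). In the opposite direction, 3R:6071147 had lower levels in males of all 5 species measured, from 33.4 against 84.5% in D.vir to 66.8 against 71.4% in D.yak, without passing the threshold (limma adjusted p = 0.086). For a single site, the exact sign-flip test over 5 species cannot go below a two-sided p of 0.0625, nor over 4 species below 0.125, and it gave these values for the 3 members. The calls were not stable: 2R:11151551 lost its call without D.mel, D.sim or D.pse, and 2R:8336284 without D.mel, D.sim, D.yak or D.ana. 2R:20802381 could not be tested when any of its 4 species was left out, since at least 4 were required. In all, 0 of 55 members passed without D.mel, 0 of 56 without D.sim, 1 of 63 without D.yak and 1 of 73 without D.pse.

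Line differences within D.mel were tested with limma's moderated F test over the 16 libraries, at sites with a level in all 16 and a mean of at least 1%. The strain effect passed an adjusted p of 0.05 at 44 of 189 members (23.3%), beside 19.2% of all 478 sites tested. The called share was 23.0% of 74 sites with 1 neighbour, 22.3% of 94 autosomal sites with none and 8.26% of 121 X chromosome sites, so the share of the members is near that of other autosomal sites. Called members lay in 25 of the 60 clusters with tested members, and 33 of the 44 were in clusters with at least 2 called members. Their line means spanned a median of 15.6 points, against 4.8 points for the 145 that were not called, and the median replicate difference was 1.5 points. A wider range follows from the call, which rests on the same line means, and members not called reached up to 39.75 points. The median range was 6.2 points over all tested members and 7.15 points over all tested sites. With 1 library left out, 87 of 190 members and 191 of 479 sites passed without replicate 1 of line 774, and 43 of the 44 were among them. Without any other single library the count of called members was between 34 and 52. The replicates of line 774 had the lowest agreement over members, with a Spearman's rho of 0.90 against 0.96 to 0.98 in the other lines.

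The widest range, 82.6 points, was at 2R:6168396, the site at 100% in the D.mel stock. Its libraries read 99.9 and 99.6% in line 26, 99.5 and 99.8% in line 325, 99.9 and 99.9% in line 721, and 68.4 and 72% in line 352. They read 22.8 and 23.9% in line 441, 22.1 and 12.6% in line 774, 22.4 and 22.6% in line 786, and 23.0 and 22.2% in line 804 (limma adjusted p = 4.53e-10). The lines thus formed 3 levels that did not overlap. Sites of the 10-site cluster around it differed in how they followed. 2R:6168410, 14 bp after it, had a Spearman's rho of 0.81 with it over the 8 line means, with 1.2 to 2.4% in the libraries of lines 26, 325 and 352 and 0.2 to 1.4% in the others (limma adjusted p = 0.0272, a call lost in 7 of the alternatives tried, with a highest p of 0.346). For 2R:6168423 rho was 0.73. 2R:6168388, which lies 8 bp before it, had a rho of -0.49 and ranged only from 20.2 to 30.4% over the libraries, and 2R:6168493, the last site of the cluster, was lowest in line 804 at 23.6 and 37.0% against 43.7 to 53.3% elsewhere (limma adjusted p = 0.0241, a call lost in 6 of the alternatives tried, with a highest p of 0.379). Whether a genomic G is present in some lines at 2R:6168396 was not tested, since no DNA of these lines was analysed here.

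A cluster on 3L held a site that was low in 1 line. 3L:4590685 was at 1.7 and 9.8% in line 26 and at 40.1 to 77.4% in the other 14 libraries (limma adjusted p = 0.00174, 0.0866 without line 26). 3L:4590709, in the same cluster and 24 bp away, was not low in line 26, with 81.3 and 71.3%. It was high in lines 26, 441, 774 and 804, at 71.3 to 86.4%, and between 50.1 and 58.6% in lines 325, 352, 721 and 786 (limma adjusted p = 2.12e-05). The libraries thus split into 2 groups of lines at this site, and the split was not the one at 3L:4590685.

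At other clusters the neighbours moved together in 1 line. In the cluster at 2R:7337821, line 774 had 15.5 and 18.8% at 2R:7337822 against 46.1 to 58.5% in the other libraries, and 12 and 15.1% at 2R:7337823 against 39.7 to 55.9%. Their line means in 774 were 17.2 and 13.6%, below the median of the other lines by a factor of 3.14 and 3.7. The weakly edited 2R:7337842, 20 bp from the first of them, was at 1.75% against 5.75%, a factor of 3.29. The limma adjusted p was 1.03e-05, 1.36e-05 and 0.00699, and without line 774 it was 0.0825, 0.0583 and 0.176. In D.mel males of the species panel the 3 sites were at 55.5, 54.7 and 5.7%, which is the pattern of the other lines.

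Line 721 was low in the same way at several places. In the cluster at 2R:4791178-4791185 its line means were 1.55, 2.15 and 6.0% at 2R:4791178, 2R:4791179 and 2R:4791185, against medians of 5.4, 8.9 and 23.2% over the other lines. The factors were 3.48, 4.14 and 3.86, so the 3 sites kept their proportions (limma adjusted p = 0.000187, 8.78e-05 and 9.6e-06, and 0.756, 0.165 and 0.113 without line 721). D.sim males had 2.0, 3.35 and 6.1% at these sites. At 2R:7335492, line 721 read 0.2 and 2.4% and the other libraries 24.3 to 34.4% (limma adjusted p = 5.07e-05, 0.125 without line 721), and 5 bp on, 2R:7335497 was at 0.2% in both libraries of line 721 and at 1.1 to 3.0% in the others (limma adjusted p = 0.00378, 0.256 without line 721).

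Adjacent sites on 3R gave the same picture. 3R:13708487 was at 29.1 and 28.9% in line 721 and at 63.1 to 81.3% in the others (limma adjusted p = 0.00047, 0.435 without line 721). The directly adjacent 3R:13708488 was at 5.4 and 4.3% against 10.4 to 16.4% (limma adjusted p = 0.00541, 0.765 without the line and 0.0839 without its replicate 2). 3R:26872226 was at 10.1 and 8.6% in line 721, between 25 and 41.1% in line 786, and at 63.6 and 71.7% in line 325 (limma adjusted p = 0.000108). Over the 44 called members, the lowest line mean was in line 721 at 12 and in line 774 at 12, and in line 352 at 0. The 2 libraries of line 721 have the same biological replicate number in their labels, so their spread may be technical.

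The remaining sites of the 10 with the widest range were 2R:9704884 and 3R:16844318. 2R:9704884 had line means from 30% in line 804 and 45.5% in line 721 to 86.4% in line 26, and both replicates of line 804 (31.4 and 28.6%) were below all other libraries (limma adjusted p = 1.36e-05). Its neighbour 2 bp before, 2R:9704882, was at 4% in line 26 and at 0.3% or less in every other line mean. 3R:16844318 was at 7.9 and 10% in line 786 and at 13.1 and 31.7% in the replicates of line 441, which differ by more than most (limma adjusted p = 0.00508, 0.126 without line 786).

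**Figure D4:**
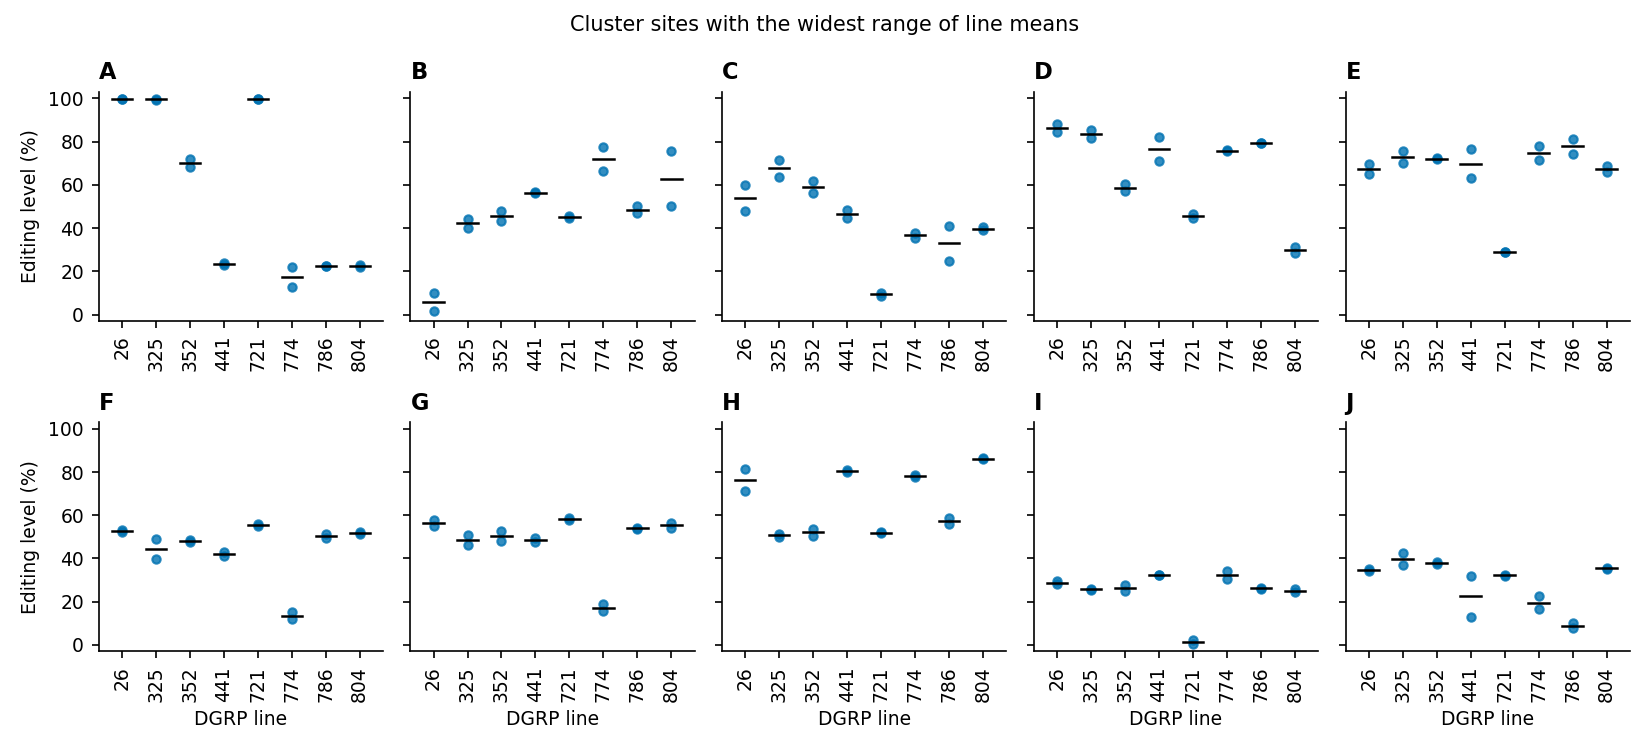
Editing level in percent (vertical axis) in the 2 libraries (points) of each DGRP line (horizontal axis), with the line mean as a bar, at the 10 called cluster sites with the widest range of line means. In order from A to J they are 2R:6168396, 3L:4590685, 3R:26872226, 2R:9704884, 3R:13708487, 2R:7337823, 2R:7337822, 3L:4590709, 2R:7335492 and 3R:16844318, and line 774 has the lowest mean at A, F and G and line 721 at C, E and I.

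Several members of a cluster also shared moderate differences between lines. At 3L:6943210 and 3L:6943212, lines 325, 441, 721 and 786 had line means of 10.2 to 16.4% and lines 26, 352, 774 and 804 of 4.2 to 6.3%, in the same order at both sites (limma adjusted p = 0.00885 and 0.00162). The other 2 members of that cluster, 3L:6943190 and 3L:6943203, were not called (limma adjusted p = 0.354 and 0.36). In the cluster at 2L:16174116, the sites 2L:16174116, 2L:16174138 and 2L:16174153 were at 34.1, 80.3 and 73.5% in line 441 and at 23.5, 68.3 and 59.1% in line 774. Their limma adjusted p was 0.0104, 0.0251 and 0.0407, and these calls were lost in 2, 9 and 17 of the alternatives tried, with a highest p of 0.0967, 0.188 and 0.134. The fourth measured member, 2L:16174152, was not called (limma adjusted p = 0.0551).

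Co-variation was measured over all tested members, called or not. Between pairs of members of a cluster at most 50 bp apart, Spearman's rho over the 8 line means had a median of 0.55 (n = 250 pairs, quartiles 0.15 and 0.78) and was above 0 in 82.0%. Between pairs of members from different clusters the median was 0.05 (n = 17476 pairs, quartiles -0.24 and 0.33) and 54.4% were above 0. The median changed little with distance, from 0.57 at 1 bp (n = 37) and 0.64 at 2 to 5 bp (n = 57) to 0.49 at 21 to 50 bp (n = 66). Of the 23 pairs with both members called, 18 had the same lowest line. Several of these pairs come from the same cluster, so they are not separate observations. Lines 721 and 774 were each the lowest at 12 of the 44 called members. How often called members of different clusters shared a lowest line was not computed. Not every such pair moved together. The correlation was -0.05 between 3L:9826394 and 3L:9826400, which lie 6 bp apart. It was -0.19 and -0.17 between 2R:7337821 and its neighbours 2R:7337822 and 2R:7337823, although line 774 was the lowest at all 3 (1% at 2R:7337821, against 3.05 to 5.15% in the other line means), and the call of 2R:7337821 was lost in 24 of the alternatives tried, with a highest limma adjusted p of 0.775. Neighbours share libraries and often reads, and the part of shared sampling in these values was not tested.

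**Figure D5:**
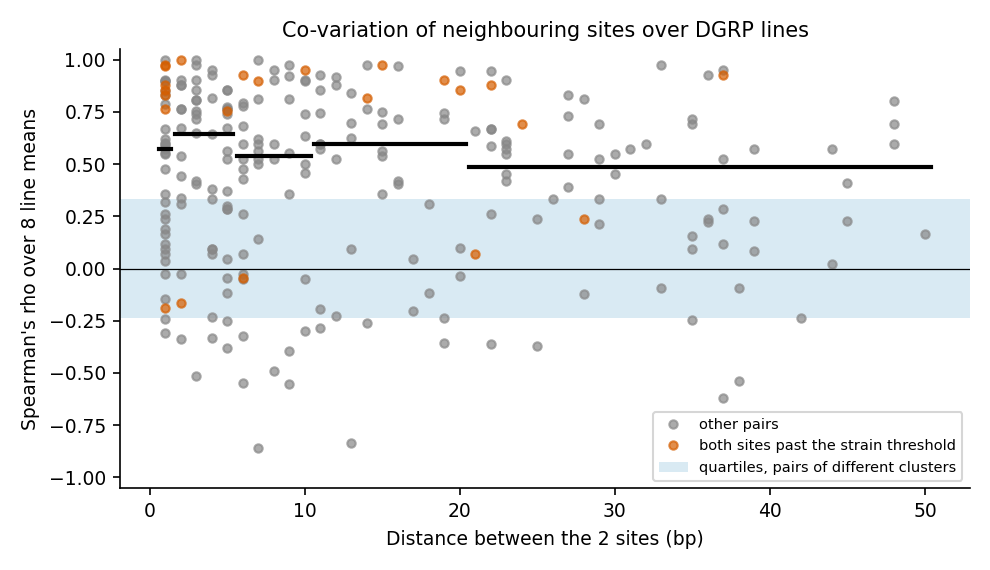
Spearman's rho of the line means of 2 cluster sites over the 8 DGRP lines (vertical axis) by the distance between the sites in bp (horizontal axis), for 250 pairs, with black bars for the median of each distance class. The shaded band holds the quartiles of pairs from different clusters, -0.24 to 0.33, and the medians of all 5 distance classes lie above it.

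Between lines, the normalized difference is the absolute difference of 2 line means divided by their mean, over sites at 20% or more in at least 1 of the 2 lines. Averaged over line pairs, its median over 105 members was 16.5% (quartiles 6.32 and 32.2%). The separate median of the difference in percentage points was 6.48 over the same members. The median normalized difference was 15.1% over 38 sites with 1 neighbour, 23.7% over 66 autosomal sites with none and 15.1% over all 280 sites. The median level of the members was between 5.9 and 8.2% in the 16 libraries. It was between 8.2 and 11.8% over all listed sites and between 8.3 and 13.05% over the other autosomal sites. The members had the lower median in each of the 16 libraries. Their share at 10% or more was also lower in each, at 40.5 to 47.1% against 46.7 to 56.1% of the other autosomal sites. These differences were not tested.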

How the data were processed

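The authors aligned the reads with TopHat, per the submitters' processing notes, and quantified sites covered by at least 50 mmPCR-seq reads. The deposited unit is the editing level as a fraction, with no normalization between samples, and the authors gave 1 combined value per species and sex and 1 value per library of the DGRP lines. How replicates and rounds of PCR were combined is not given in the sources used here, and the tables hold no read counts per value, so no intervals from depth were computed. For its divergence analyses the study kept mmPCR-seq sites whose biological replicates differed by at most 10%. Whether the species values used here had passed that filter is not stated. In the table of the lines, 16 positions with digits lost to the letters NA were restored, of which 1 was a member. All columns were assigned, and levels were converted to percent.

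Members and lists were chosen with earlier results of these data known. Tests used limma 3.58.1 in R 4.3.3 on log2 odds with an offset of 0.01, with Benjamini-Hochberg adjustment over all sites tested, and were tested on simulated data. Lines were compared without a replicate term. Named sites were taken by rule: the 6 clusters with most D.mel male levels (ties by members with male levels in 6 species, then by position), called members (the 10 with the widest range in full), members with a sex difference, the 5 highest members, and those at 10% or more in males of 6 species. Other sites are named as examples chosen after their values were seen. The alternatives were other offsets, filters, neighbour rules and limits, a replicate block, and each line, library or species left out. Figures were drawn with matplotlib.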

Additional observations from a re-analysis of the deposited data

How the results depend on the processing

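The tests between lines and between sexes were repeated under 33 and 14 alternatives. With lines or libraries left out, the called members of the line test ranged from 33 to 87, and the called sites in all from 74 to 191, the highest values being those without replicate 1 of line 774. Of the 44 called members, 10 passed in every alternative that gave them a value. Replicate 1 deviations correlated between lines at -0.14 to 0.31 (median 0.08, over 0.1 in 13 of 28 pairs of lines). Whether libraries of the same replicate number share an effect was not tested. With the replicate block, 56 members and 119 sites passed, and 43 of the 44 were among them.

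Members called higher in males numbered 0 with an offset of 0.05, with untransformed levels or with all 6 species required, 1 with at least 5 species, 5 with at least 3, and 0 to 4 with a species left out. The settings on species also changed the members tested from 94. They were 17 with all 6 species, 54 with at least 5, 158 with at least 3, and 55 to 78 with a species left out. Members called higher in females numbered 0 throughout. The share of D.mel-edited members also edited in D.sim was 87.3% with a limit of 2%. In females it was 86.8% in D.yak and 77.3% in D.vir. The medians by species, the other shares, the co-variation of neighbours (0.52 to 0.58) and the normalized difference (13.3 to 19.7%) stayed within their 95% intervals, Wilson's for shares and, for medians, the order statistics given by the binomial distribution. These intervals count each site or pair as independent. Sites of a cluster are not, so the intervals served only as a range for comparison and do not give the precision of these values. The tables hold no reads per value, so the precision of single low levels is not given.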
